A study of Mus musculus with 16 samples.

Results

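A set of 752 genes was compared between the livers of AMLN-fed TSP1ΔPf4 mice and AMLN-fed TSP1F/F mice, with 4 livers in each group. These are the genes whose identifiers stand in both deposited tables, one for each genotype, out of 5205 genes in either table. The TSP1F/F table held 2558 genes, of which the shared genes are 29.4%, and the TSP1ΔPf4 table held 3399, of which they are 22.1%. Each table lists genes that differed between the AMLN and LF diets within 1 genotype at an unadjusted p under 0.05, so every gene described here had been selected for a diet difference in both genotypes with these same mice. The direction of a shared gene between genotypes was not part of that selection, but the AMLN livers took part in it. Where the diet moved a gene in opposite directions in the genotypes, a genotype difference on the AMLN diet follows in part from the selection. Genes found in 1 table only could not be compared between the genotypes, among them Thbs1, Timp1, Acta2, Cd63 and Pik3r5 in the WT table and Cxcl1 and Cxcl2 in the KO table.

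Whole-liver RNA came from 16 male C57BL6 mice, 4 in each of 4 groups, after 32 weeks on a diet. Both genotypes carry floxed alleles of Thbs1, the gene of thrombospondin 1 (TSP1), a glycoprotein stored in platelet granules. The TSP1ΔPf4 mice (labelled KO) also carry a Pf4-Cre transgene, whose promoter is active in megakaryocytes, the cells that shed platelets, and the TSP1F/F mice (labelled WT) are their littermates without it. The AMLN diet is rich in fat, fructose and cholesterol and was used to induce steatohepatitis, and the LF diet is its low-fat control. Ages are not given in the labels. Thbs1 could not be used to check the genotype labels because it stands in the WT table only. WT and KO are used below for the AMLN-fed groups unless the LF diet is named. Each genotype was deposited in a table of its own, and whether both tables came from 1 quantification is not given in the sources used here, so a difference between the tables cannot be told apart from the genotype. Nothing in the labels says that livers with the same replicate number belong together.

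Steatohepatitis is fat accumulation in hepatocytes joined by inflammation and scarring. Resident liver macrophages, the Kupffer cells, line the sinusoids and clear particles from portal blood. In a fatty liver they are joined by macrophages made from blood monocytes, some of which take on a lipid-associated state marked by Trem2 and Gpnmb. Hepatocytes make plasma proteins, bile acids and lipoproteins and burn fatty acids under the control of the nuclear receptor PPARα. Stressed cells switch on immediate early genes such as Fos within minutes, and hepatocytes exposed to cytokines secrete acute phase proteins. Whole tissue was measured, so fewer cells of a type and less RNA of a gene in each cell cannot be told apart.

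Library totals were from 18362810 to 39753019 in WT and from 23221536 to 31363462 in KO livers, with medians of 27661650.5 and 27148200. The shared genes took 6.18% to 10.8% of the counts of a WT library and 8.20% to 9.34% of a KO library. Levels are given as CPM, the deposited count for each 1000000 reads of the library total. Differences are log2 fold changes of KO over WT, negative where KO is lower. A call here means that the p of edgeR's quasi-likelihood test, after Benjamini-Hochberg adjustment across all genes tested, was below 0.05 with a log2 fold change beyond 0.25 in either direction. Of the 752 genes, 733 had enough counts to be tested and 19 did not.

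The sequences that follow are promoters of 6 genes called lower in KO livers that are described in detail further on, namely the macrophage genes Trem2, Gpnmb, Mmp12 and Mmp13 and the acute phase genes Orm2 and Orm3. They were picked because each holds the letters TGANTCA, the recognition sequence of AP-1, the dimer formed by the proteins of the Fos and Jun genes, and because Fos and Fosb were themselves called lower. Windows of called genes without these letters are not shown. Each window runs 5′ to 3′ on the gene's strand from 250 bases before to 50 bases after a RefSeq transcription start in GRCm38.p6, and the match is in capitals.
Trem2, chr17:48346151-48346450, forward strand: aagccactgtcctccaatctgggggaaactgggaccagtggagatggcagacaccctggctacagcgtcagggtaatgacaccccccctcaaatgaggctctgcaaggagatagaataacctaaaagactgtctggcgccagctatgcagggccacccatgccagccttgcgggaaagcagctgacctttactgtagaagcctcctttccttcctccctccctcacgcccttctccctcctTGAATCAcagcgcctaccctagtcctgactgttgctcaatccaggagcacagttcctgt
Gpnmb, chr6:49036268-49036567, forward strand: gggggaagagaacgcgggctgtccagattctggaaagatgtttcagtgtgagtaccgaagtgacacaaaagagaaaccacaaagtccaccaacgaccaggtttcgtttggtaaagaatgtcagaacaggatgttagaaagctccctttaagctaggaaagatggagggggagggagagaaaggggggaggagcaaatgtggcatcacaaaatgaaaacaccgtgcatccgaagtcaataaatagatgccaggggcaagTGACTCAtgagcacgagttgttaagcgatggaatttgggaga
Mmp12, chr9:7347124-7347423, forward strand: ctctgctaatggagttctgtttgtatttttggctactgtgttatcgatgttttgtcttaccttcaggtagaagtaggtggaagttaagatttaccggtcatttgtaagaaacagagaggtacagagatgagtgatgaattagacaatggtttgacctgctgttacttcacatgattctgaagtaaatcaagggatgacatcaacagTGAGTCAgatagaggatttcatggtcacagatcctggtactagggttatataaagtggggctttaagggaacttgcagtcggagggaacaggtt
Mmp13, chr9:7272264-7272563, forward strand: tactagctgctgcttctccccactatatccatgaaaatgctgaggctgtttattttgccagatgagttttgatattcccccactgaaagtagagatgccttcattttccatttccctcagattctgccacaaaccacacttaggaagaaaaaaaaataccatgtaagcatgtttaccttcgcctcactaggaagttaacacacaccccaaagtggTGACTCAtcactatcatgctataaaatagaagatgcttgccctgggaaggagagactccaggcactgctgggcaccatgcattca
Orm2, chr4:63362199-63362498, forward strand: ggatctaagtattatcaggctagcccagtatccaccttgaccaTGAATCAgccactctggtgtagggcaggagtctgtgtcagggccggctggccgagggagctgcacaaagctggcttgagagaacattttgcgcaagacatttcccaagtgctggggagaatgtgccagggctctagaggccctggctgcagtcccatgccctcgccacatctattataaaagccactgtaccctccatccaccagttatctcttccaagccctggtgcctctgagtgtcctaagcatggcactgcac
Orm3, chr4:63355908-63356207, forward strand: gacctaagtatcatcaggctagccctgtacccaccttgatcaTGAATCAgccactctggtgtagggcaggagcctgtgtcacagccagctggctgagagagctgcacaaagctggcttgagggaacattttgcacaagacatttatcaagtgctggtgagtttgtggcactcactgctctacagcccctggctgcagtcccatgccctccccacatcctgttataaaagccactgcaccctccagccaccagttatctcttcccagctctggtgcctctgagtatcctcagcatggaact
The match began 9 bases before the start of Trem2, 44 before that of Mmp12 and 35 before that of Mmp13. In Gpnmb it began 8 bases after the start. The matches of Orm2 and Orm3 lay farther off, 207 and 208 bases before their starts.

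Among the 62 genes called lower in KO livers, 45 had a promoter in the table, with 49 windows in all. TGANTCA, read on both strands, was in 9 of these 49 windows (18.4%), in 69 of the 708 windows of tested genes (9.75%) and in 7.81% of all 32851 windows. Besides the 6 genes shown, the called genes with a match were Fam180a, H2-DMb1 and Slamf7. Of the monocyte-derived and lipid-associated macrophage genes called lower, 7 had a promoter, with 9 windows. A match was in 4 of these 9 windows, those of Trem2, Gpnmb, Mmp12 and Mmp13 shown above. Another 3 motifs were searched on both strands. TGACGTCA, the cyclic AMP response element, was in 0 of the 49 windows, in 2.12% of those of tested genes and in 1.79% of all windows. TGACG, which TGACGTCA contains, was in 8 of the 49 windows (16.3%), those of Fos and Fosb among them. It was in 21.5% of the windows of tested genes and in 20.8% of all. GAGGAAGT, bound by the myeloid factor PU.1, was in 1 window of the 49, in 4.80% of those of tested genes and in 3.20% of all. That window belongs to Mmp12 but is not the one printed above, which holds no GAGGAAGT. These are matches of letters and say nothing of binding in these livers. Whether AP-1 has a part in the lower levels of these genes was not tested.

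Across the 733 tested genes, 62 were called lower and 4 higher in KO livers. The called genes made up 9.0% of the tested genes, with 8.46% called lower and 0.546% called higher. Called lower were 16 of 58 distinct tested genes of the macrophage lists and 7 of 33 of the stress lists. Also called lower were 6 mitochondrial genes and 4 genes known from mesothelium, among others. Called higher were Acot3, Cyp4a14, Glyctk and Fbxo31. At an unadjusted p under 0.05, 166 genes were lower and 19 higher. The median log2 fold change over all tested genes was -0.38, and 536 of them (73.1%) were below 0. For 91 genes (12.4%) all 4 KO livers lay below all 4 WT livers, and for 19 genes (2.59%) they lay above, with 110 genes (15.0%) not overlapping in either direction. Of the 66 called genes, 56 did not overlap.

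The size of this general shift depends on the scaling. It was -0.10 with TMM over the shared genes, -0.04 with DESeq2 and its own size factors, and -0.42 with the size factors of the authors. The split of calls moved with it, from 62 lower and 4 higher to 37 and 11 with TMM, 56 and 17 with DESeq2 and 64 and 4 with the authors' factors. Of the 66 genes called here, 41 were also called with TMM, 56 with DESeq2 and 66 with the authors' factors. Single libraries also moved the count. Without KO replicate 2 there were 22 calls, without KO replicate 3 there were 30, without KO replicate 1 there were 33, without WT replicate 3 there were 36, and without WT replicate 4 there were 44. In all 8 fits that leave out 1 liver, 20 genes were called.

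The shift was not even across expression levels. The median log2 fold change was -0.66 in the fifth of genes with the lowest mean CPM and -0.07 in the fifth with the highest, which started at 64.5 CPM. By diet response, computed here from mean CPM, 467 tested genes were higher on the AMLN diet than on the LF diet in both genotypes, and 35 of them were called lower in KO. Another 35 genes were raised by the diet in WT but lowered in KO livers, and 27 of these were called lower. The diet direction uses the same AMLN livers, and the genes were selected by diet in both genotypes. That last count therefore follows in part from how the class was made. The same holds for single genes described below that the diet moved in opposite directions, such as Neat1, mt-Nd3, mt-Th, Cxcl5, Glyctk and Fbxo31. Of the 220 genes lowered by the diet in both genotypes 2 were called, both higher, with a median of -0.10. A further 11 tested genes were lowered by the diet in WT but raised in KO livers, with a median of 0.64. Of these, 2 were called, Glyctk and Fbxo31, both higher. That count also follows in part from how the class was made.

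**Figure D1:**
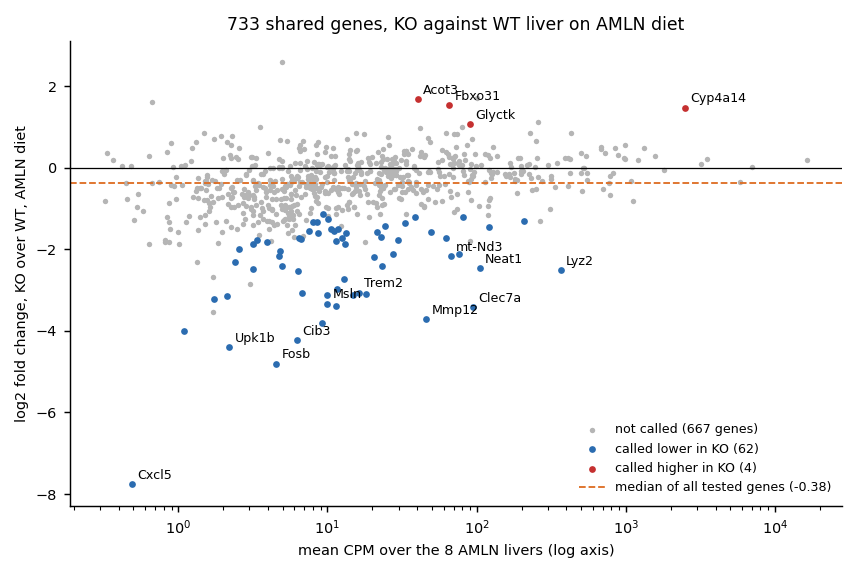
Log2 fold change of KO over WT liver on the AMLN diet (vertical axis) against the mean CPM over the 8 AMLN livers (horizontal log axis) for the 733 tested genes. The 62 genes called lower lie mostly below 100 CPM, the 4 called higher are labelled, and the dashed line is the median of all tested genes, -0.38.

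Genes of monocyte-derived and lipid-associated macrophages were lower in KO livers. Of 22 genes in that list, 12 stood in both tables, all 12 were tested, 8 were called lower, 0 were called higher, and all 12 had a log2 fold change below 0, with a median of -2.0 against -0.38 over all tested genes. Of all tested genes, 8.46% were called lower and 73.1% were below 0. The list's median was -1.70 with TMM and -1.61 with DESeq2. Summed over its members, the list held 557 to 2705 CPM in WT livers and 198 to 290 CPM in KO livers, beside 56.8 to 439 in LF-fed WT and 60.5 to 125 in LF-fed KO livers.

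Trem2, a lipid-sensing receptor of macrophages (chromosome 17, 48346401 to 48354147 of mm10), had 19.7, 13.4, 15.4 and 67.6 CPM in the WT livers and 3.17, 2.38, 4.97 and 3.32 CPM in the KO livers. The lowest WT liver was above the highest KO liver, and WT replicate 4 stood far above the other WT livers. The log2 fold change was -3.06 (standard error 0.53, edgeR adjusted p = 0.00533), and without WT replicate 4 it was -2.22 and still called. Gpnmb, a transmembrane glycoprotein of lipid-laden macrophages (chromosome 6, 49036546 to 49070929), had 36.00, 12.3, 47.2 and 59.8 CPM in WT and 5.47, 5.67, 12.2 and 5.73 CPM in KO livers. Again the groups did not overlap, but KO replicate 3 came close to WT replicate 2. Gpnmb was 5.33-fold higher in WT (log2 fold change -2.41, standard error 0.46, edgeR adjusted p = 0.00850).

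Mmp12 encodes macrophage elastase, which cuts elastin, and lies at chromosome 9, 7344381 to 7369499. It was measured at 32.5, 45.8, 84.97 and 177 CPM in WT livers and at 5.14, 6.74, 6.19 and 7.97 CPM in KO livers. Every KO liver held less than every WT liver, with a log2 fold change of -3.71 (standard error 0.50, edgeR adjusted p = 0.00268), the most negative value of the list. Its neighbour Mmp13, a collagenase, had 2.96, 2.16, 6.74 and 3.98 CPM in WT and 0.567, 0.699, 0.733 and 1.21 CPM in KO livers. The groups did not overlap, with a log2 fold change of -2.31 and an edgeR adjusted p = 0.0182.

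Clec7a (dectin-1), a receptor for fungal glucans (chromosome 6, 129461591 to 129472779), had 50.2, 74.3, 90.6 and 478 CPM in WT and 10.6, 14.9, 12.6 and 26.5 CPM in KO livers. WT replicate 4 carried more Clec7a than the other WT livers together, and the log2 fold change of -3.42 (edgeR adjusted p = 0.00906) was -2.15 without that liver and still called. Lyz2, the macrophage lysozyme, had 252, 371, 364 and 1499 CPM in WT and 109, 79.03, 82.8 and 167 CPM in KO livers. The groups did not overlap, and its log2 fold change of -2.51 (edgeR adjusted p = 0.0162) became -1.59 without WT replicate 4. Lgals3 (galectin-3), a sugar-binding protein that activated macrophages secrete, was lower in KO with 21.6, 21.6, 37.00 and 59.2 against 9.67, 8.88, 11.4 and 13.05 CPM (log2 fold change -1.69, edgeR adjusted p = 0.0139). Lpl (lipoprotein lipase) completed the called members with 110.1, 117, 162 and 315 against 51.3, 63.1, 94.5 and 50.3 CPM and a log2 fold change of -1.44 (edgeR adjusted p = 0.0311). The call of Lpl was absent with TMM and in 5 of the 8 fits that leave out a liver.

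The members that were not called were Cd68, Ccr2, Itgax and Cx3cr1. Cd68, a lysosomal glycoprotein of macrophages, had 17.2, 11.3, 17.4 and 15.8 CPM in WT and 7.94, 8.72, 9.98 and 5.297 CPM in KO livers. Its groups did not overlap, but with a log2 fold change of -0.95 the edgeR adjusted p was 0.0751. Ccr2, the receptor that draws monocytes toward Ccl2, had 5.32, 2.604, 8.02 and 14.8 against 3.84, 3.04, 2.14 and 4.52 CPM, and these overlapped (log2 fold change -1.18, edgeR adjusted p = 0.152). Itgax and Cx3cr1 had log2 fold changes of -1.13 and -0.99.

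**Figure D2:**
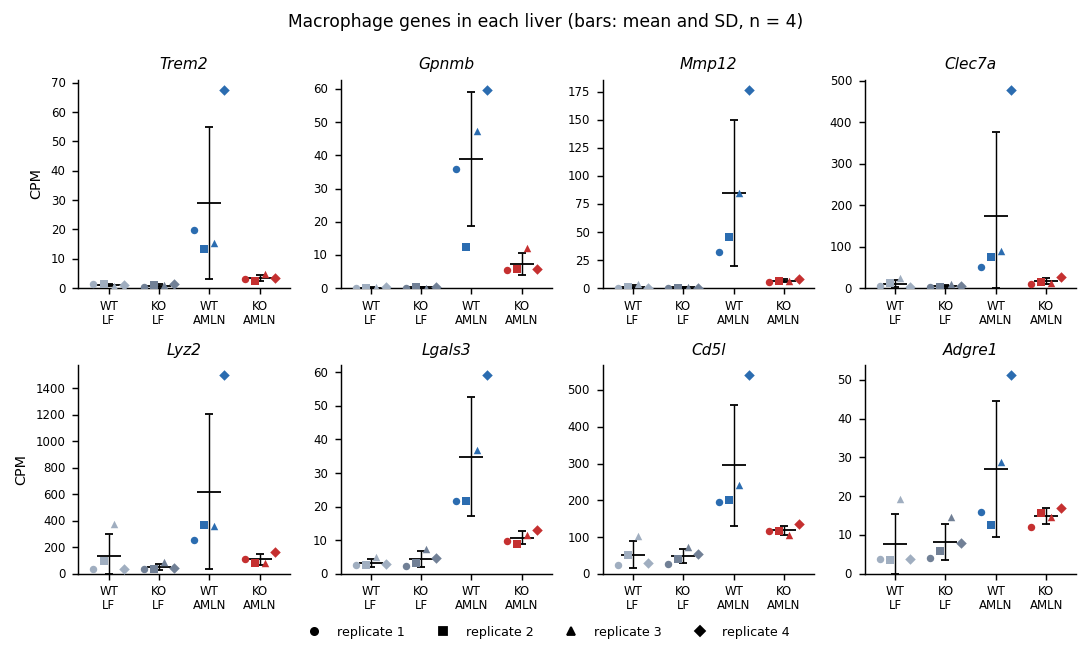
CPM of 8 macrophage genes in each liver, by genotype and diet, with 1 symbol per replicate number and bars for the mean and SD of 4 livers, cut at 0. WT AMLN replicate 4 is the highest point for all 8 genes, and KO AMLN livers lie below all WT AMLN livers for 7 of the 8, Adgre1 being the exception.

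Of 17 Kupffer cell and resident macrophage genes, 7 were shared and tested, 1 was called lower, and the median log2 fold change was -0.49 (-0.22 with TMM and -0.13 with DESeq2). The called gene was Cd5l, a secreted macrophage survival factor, with 195, 202, 240.5 and 541 CPM in WT and 117, 117, 104 and 136 CPM in KO livers. Its groups did not overlap, with WT replicate 4 again highest, and the call (log2 fold change -1.31, edgeR adjusted p = 0.0333) was absent with TMM and DESeq2. Adgre1, which encodes the pan-macrophage antigen F4/80, had 15.8, 12.6, 28.9 and 51.1 CPM in WT and 12.1, 15.7, 14.7 and 16.97 CPM in KO livers. The 2 lowest WT livers lay among the KO livers, and Adgre1 was not called (log2 fold change -0.86, edgeR adjusted p = 0.199). Vsig4, a complement receptor of Kupffer cells, was at -0.41, and Csf1r, the receptor for macrophage colony-stimulating factor, was at 0.18. Cd163, the haemoglobin scavenger receptor, ran furthest the other way at 0.877, 0.404, 0 and 0 CPM in WT and 2.17, 0.617, 0.670 and 0.603 CPM in KO livers, low levels that overlapped (log2 fold change 1.62, edgeR adjusted p = 0.396). Axl and Cd207 were at -0.49 and -0.84, and apart from Cd5l no member was called. The Kupffer cell markers Clec4f and Marco stood in 1 table only.

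Receptors and oxidase subunits of phagocytes were shared and tested in 20 of 31 cases, the most of any macrophage list. Called lower were Fcgr1, Plek and Sirpa, none were called higher, 19 of the 20 were below 0, and the median was -0.94. Among all tested genes 8.46% were called lower and 73.1% were below 0. For 9 of the 20 no KO liver reached a WT liver, against 12.4% of all tested genes. Fcgr1, the high-affinity receptor for immunoglobulin G, had 7.84, 10.96, 12.1 and 21.5 CPM in WT and 3.44, 3.82, 3.99 and 5.99 CPM in KO livers. Sirpa, the receptor for the signal CD47, had 38.6, 28.1, 54.96 and 67.7 CPM in WT and 19.1, 17.2, 18.97 and 19.2 CPM in KO livers. Plek (pleckstrin), a kinase substrate of platelets and leukocytes, had 6.78, 7.27, 14.2 and 16.9 CPM in WT and 2.94, 3.58, 4.27 and 4.52 CPM in KO livers. None of these 3 genes overlapped between groups, and their log2 fold changes were -1.60, -1.35 and -1.56 with edgeR adjusted p-values of 0.0182, 0.0182 and 0.0231. TMM did not call Plek. C1qb, a chain of the first complement component made by macrophages, separated the groups as well at 82.3, 64.1, 76.8 and 171 against 46.9, 43.3, 47.6 and 57.1 CPM, without a call (log2 fold change -1.01, edgeR adjusted p = 0.0785). Plek is also a platelet gene, and 0 of the 16 genes of the platelet and megakaryocyte list stood in both tables, Pf4 among those in 1 table only.

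Clec4e (Mincle), a receptor for damaged cells on macrophages that was in no list, was among the 10 largest called falls whose groups did not overlap. It had 0.877, 0.943, 2.24 and 8.44 CPM in WT and 0.167, 0.0822, 0.383 and 0.689 CPM in KO livers, again with WT replicate 4 highest and no overlap, and a log2 fold change of -3.22 (edgeR adjusted p = 0.0388). TMM did not call it.

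MHC class II genes, which present antigen to T cells, were tested in 9 of 14 cases, with 1 called lower and a median of -0.93. That count is near the 8.46% of all tested genes called lower, and all 9 were below 0, as were 73.1% of all tested genes. That gene was H2-DMb1, a peptide-loading chaperone, at 10.7, 12.03, 22.3 and 34.96 CPM in WT and 5.905, 5.96, 3.73 and 11.02 CPM in KO livers. WT replicate 1 and KO replicate 4 overlapped, and the call (log2 fold change -1.59, edgeR adjusted p = 0.0416) was absent with TMM and DESeq2. H2-Ab1, a chain of the class II molecule itself, had 88.7, 103, 177 and 289 against 54.6, 79.3, 57.1 and 106 CPM and missed the threshold (edgeR adjusted p = 0.0952). Of 3 lysosome genes tested 0 were called, and their median of -0.21 was 0.069 with TMM and 0.13 with DESeq2.

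Chemokines and their receptors were below 0 in 9 of 9 tested genes of a list of 38, with 3 called lower and a median of -1.18. Over all tested genes, 73.1% were below 0 and 8.46% were called lower. Ccl2, the main attractant of monocytes (chromosome 11, 82035571 to 82037453), had 2.63, 5.39, 9.33 and 16.1 CPM in WT and 1.17, 1.398, 1.18 and 2.498 CPM in KO livers. No KO liver reached the lowest WT liver, and the log2 fold change was -2.42 (standard error 0.55, edgeR adjusted p = 0.0182). Ccl6, a chemokine of macrophages, had 16.1, 23.3, 29.6 and 60.8 against 11.9, 12.01, 7.11 and 12.4 CPM without overlap (log2 fold change -1.58, edgeR adjusted p = 0.0272), and TMM did not call it. Cxcl5, a neutrophil attractant, was low in WT, with 0.666, 0.404, 1.11 and 1.74 CPM, which came from 22, 9, 44 and 32 counts. In KO it had 0 counts in all 4 livers. Taking 3 counts per KO library as the floor, it was at least 8.74-fold higher in WT (edgeR adjusted p = 0.00997). Cxcl5 rose with the diet in WT, and with 0 counts in KO it can only have been selected there for a fall. The genotype difference therefore follows in part from the selection.

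Most of the genes called lower had their highest value in the same liver, WT replicate 4 for 34 of the 62 and WT replicate 3 for 16. Without WT replicate 4 the monocyte-derived macrophage list had 7 calls, the phagocyte receptor list 2, the chemokine list 2 and the Kupffer cell list 0. Without WT replicate 3 the same lists had 6, 2, 0 and 0 calls. Leaving out KO replicate 2 gave 4, 0, 1 and 0 calls, and leaving out KO replicate 1 or 3 also left the phagocyte receptor list at 0 and the chemokine list at 1.

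**Figure D3:**
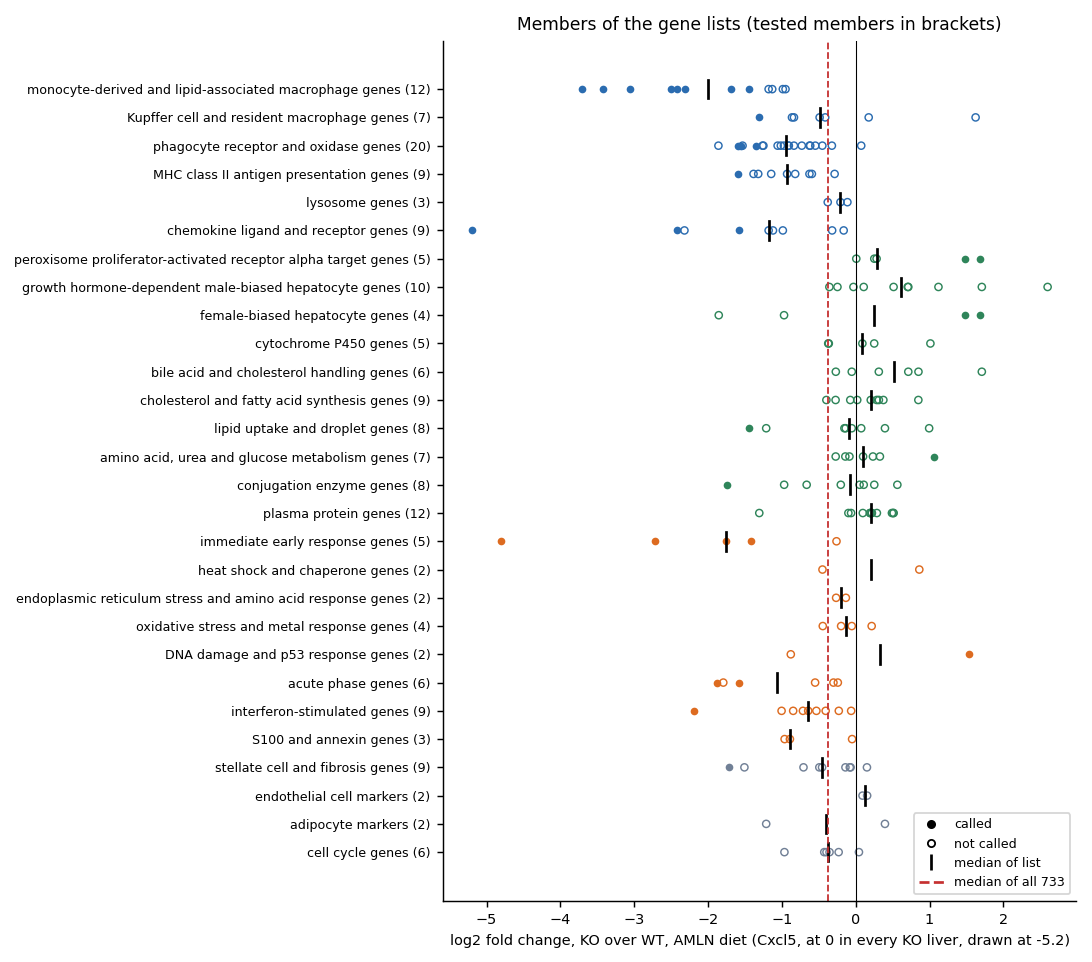
Log2 fold change of KO over WT liver on the AMLN diet for each tested member of 28 gene lists, with filled points called, open points not called, a black tick at each list's median and the dashed line at the median of all 733 genes. The macrophage lists (blue) lie left of 0 except for 3 genes, the hepatocyte lists (green) centre near or right of 0, and the stress lists (orange) differ from one another.

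Markers of other liver cells were few among the shared genes. Stellate cell and fibrosis genes were tested in 9 of 30 cases, with 1 called lower and a median of -0.46, close to the median of all genes (-0.19 with TMM and -0.06 with DESeq2). Col3a1, a fibrillar collagen, had 55.8, 66.9, 116 and 146 CPM in WT and 30.2, 28.3, 42.6 and 15.4 CPM in KO livers without overlap (log2 fold change -1.72, edgeR adjusted p = 0.0182). Col1a1, the main collagen of scars, did not follow it, with 17.6, 6.601, 26.9 and 6.43 CPM in WT and 13.4, 12.2, 28.03 and 0.861 CPM in KO livers. Those groups overlapped throughout, and its log2 fold change of -0.08 (edgeR adjusted p = 0.958) was 0.20 with TMM and 0.30 with DESeq2. Sparc, a collagen-binding matrix protein, separated the groups without a call at 77.00, 69.4, 90.4 and 98.6 against 53.5, 43.3, 58.2 and 50.4 CPM (edgeR adjusted p = 0.0996). Endothelial markers were Stab2 and Lyve1, with 0 of 2 called and log2 fold changes of 0.09 and 0.16. No cholangiocyte or B cell marker was shared, 0 of 6 tested cell cycle genes were called, and the red blood cell gene Hba-a2 was at 3.42, 2.69, 10.4 and 8.82 CPM in WT and 3.503, 3.29, 1.08 and 1.64 CPM in KO livers without a call.

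Across the 10 hepatocyte lists, 5 of 68 distinct tested genes (7.35%) were called, near the 9.0% of all tested genes, but 3 of the 5 were higher in KO livers. The calls higher were Acot3, Cyp4a14 and Glyctk, and the calls lower were Lpl, which macrophages also express, and Gsta1. Of 37 target genes of PPARα, 5 were shared and tested, 2 were called higher (0.546% of all tested genes were) and the median was 0.28. Acot3, a peroxisomal enzyme that frees fatty acids from coenzyme A (chromosome 12, 84052144 to 84060402), had 7.84, 21.6, 12.4 and 34.8 CPM in WT and 35.6, 60.6, 73.4 and 76.1 CPM in KO livers. Every KO liver was above every WT liver, though KO replicate 1 and WT replicate 4 lay close to each other. Acot3 was 3.21-fold higher in KO (log2 fold change 1.68, standard error 0.43, edgeR adjusted p = 0.0298).

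Cyp4a14, which hydroxylates fatty acids at their end (chromosome 4, 115486200 to 115496142), had 1109, 1341, 505 and 2349 CPM in WT and 3195, 3596, 4095 and 3854 CPM in KO livers. The KO livers were close together and all above the WT livers, with a log2 fold change of 1.47 (standard error 0.41, edgeR adjusted p = 0.0420). Of the 8 fits that leave out a liver, 1 kept that call, the fit without WT replicate 4, while TMM, DESeq2 and the authors' factors all kept it. On the LF diet the WT livers had 3530.2, 2359, 3155 and 5735 CPM and the KO livers 4684, 4679, 4695 and 5993 CPM. Each AMLN-fed WT liver was below the lowest LF-fed liver of either genotype. The other 3 PPARα targets tested, Ech1, Eci2 and Fabp1, had log2 fold changes of 0.01, 0.25 and 0.28 and were not called. Acot3 and Cyp4a14 have close relatives in gene clusters, and how the counting shared reads among them is not given in the sources used here.

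Glyctk (glycerate kinase), which acts in the breakdown of fructose and serine (chromosome 9, 106152857 to 106158138), had 63.3, 57.3, 60.7 and 52.8 CPM in WT and 134, 138, 125 and 93.3 CPM in KO livers. The WT values lay within a narrow band and the KO values above it, 2.095-fold higher (log2 fold change 1.07, standard error 0.25, edgeR adjusted p = 0.0182). Mean Glyctk was lower on the AMLN than on the LF diet in WT and higher in KO livers. The call of Glyctk therefore follows in part from the selection of genes by diet. Glyctk was the 1 call among 7 tested genes of amino acid, urea and glucose metabolism, whose median was 0.10. Leaving out a liver kept the call of Glyctk in 5 of 8 fits and that of Acot3 in 4 of 8, while the other 3 scalings kept both.

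Genes that depend on the male pattern of growth hormone had a median of 0.61 over 10 tested genes of 25, with 0 called, and a median of 0.26 without KO replicate 4. Slco1a1, an organic anion transporter, had 59.8, 67.6, 26.9 and 34.5 CPM in WT and 201, 113, 35.9 and 267 CPM in KO livers. Only KO replicate 3 fell among the WT livers, and the log2 fold change of 1.71 had an edgeR adjusted p = 0.0613, with TMM and DESeq2 calling it higher. Hsd3b5, a male-specific steroid enzyme, rested on 1 liver, with 4.303, 3.08, 0.797 and 25.97 CPM in KO against 1.88, 3.01, 0.704 and 0 CPM in WT. Its log2 fold change of 2.60 became 0.96 without KO replicate 4. Major urinary protein genes (Mup3, Mup7, Mup11 and Mup21) were not called and are too alike for their counts to be read one by one.

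Of 4 female-biased genes tested, the 2 called were again Acot3 and Cyp4a14. The other members, Cyp2b13 and Ntrk2, had negative log2 fold changes of -1.86 and -0.97 without a call (edgeR adjusted p = 0.260 and 0.132). Bile acid and cholesterol handling genes had a median of 0.51 over 6 tested genes, with 0 called. Slc10a1, the transporter that takes bile acids up from blood, separated the groups at 406, 359, 185 and 282 CPM in WT and 515, 537, 639 and 531 CPM in KO livers. It missed the threshold here (log2 fold change 0.85, edgeR adjusted p = 0.0996) and was called with TMM and DESeq2. Cholesterol and fatty acid synthesis genes were tested in 9 cases with 0 called and a median of 0.20. Their largest difference was in Stard4, a cholesterol carrier, at 8.83, 10.9, 16.1 and 8.604 against 13.1, 23.4, 20.6 and 23.00 CPM (log2 fold change 0.85, edgeR adjusted p = 0.112), which DESeq2 called higher. Scd1 and Insig1 were not called.

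Lipid droplet and uptake genes, 8 tested, had Lpl as their 1 call, absent with TMM, and a median of -0.09 that was 0.19 with TMM and 0.25 with DESeq2. Cidec, which fuses lipid droplets, had 50.7, 63.1, 75.9 and 23.1 CPM in WT and 166, 86.5, 127 and 44.3 CPM in KO livers (log2 fold change 1.00, edgeR adjusted p = 0.167). Fabp4, a fatty acid carrier of adipocytes and macrophages, ran the other way at 36.4, 23.6, 24.8 and 20.97 against 20.9, 5.798, 11.99 and 6.93 CPM (log2 fold change -1.21, edgeR adjusted p = 0.0854). Neither was called here, and DESeq2 called Cidec higher. Among 8 conjugation enzyme genes, Gsta1, a glutathione transferase, was called lower at 5.57, 17.1, 6.09 and 12.2 against 2.44, 5.304, 2.26 and 2.24 CPM (log2 fold change -1.74, edgeR adjusted p = 0.0333), a call that was absent with TMM and in 5 of the 8 fits that leave out a liver. The list's median was -0.07, or 0.22 with TMM.

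Plasma protein genes, which identify the tissue as liver, were tested in 12 of 57 cases with 0 called and a median of 0.20. Summed, they held 7677 to 16857 CPM in WT and 12684 to 16977 CPM in KO livers, the lowest being WT replicate 3. Of the defining hepatocyte genes, Ttr and Serpina1a were shared and Alb, Apoa1 and Cps1 were not. Ttr (transthyretin), a hormone carrier, had 3241, 4545, 1997 and 3204 CPM in WT and 3093, 3725, 4177 and 4127 CPM in KO livers, and these overlapped (log2 fold change 0.22). Hamp (hepcidin), the hormone that limits iron uptake and rises in inflammation, was low in 3 of 4 KO livers, with 225, 594, 226 and 475 CPM in WT and 88.00, 67.5, 58.9 and 400.3 CPM in KO livers, and it was not called (log2 fold change -1.31, edgeR adjusted p = 0.187). The 5 cytochrome P450 genes tested had 0 calls and a median of 0.09.

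**Figure D4:**
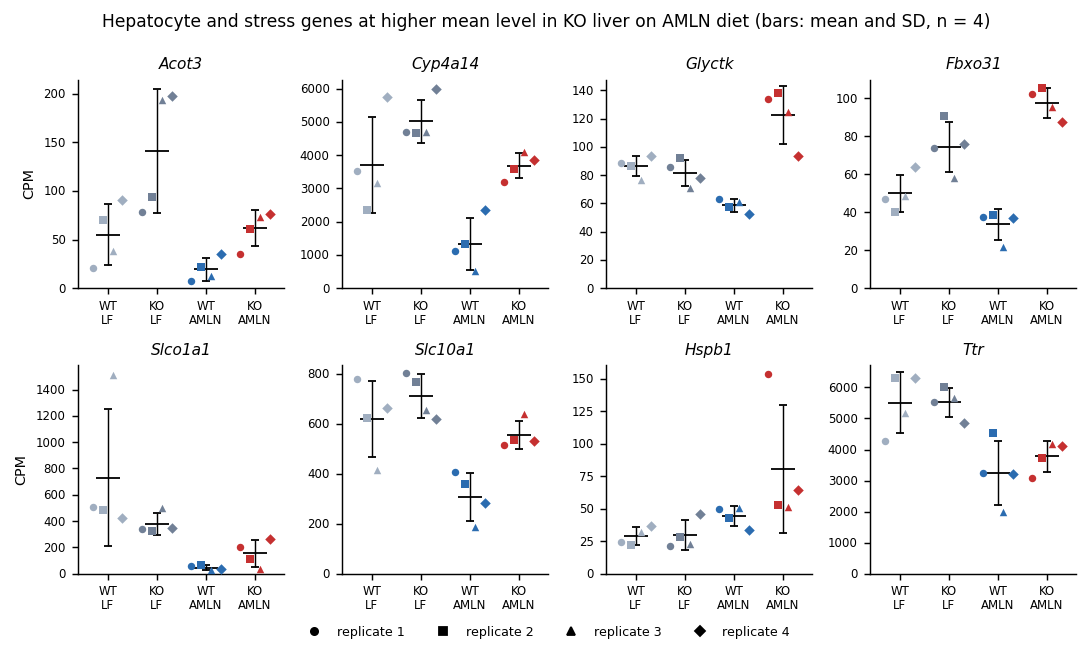
CPM of 6 hepatocyte genes and of the stress genes Fbxo31 and Hspb1 in each liver, by genotype and diet, with 1 symbol per replicate number and bars for the mean and SD of 4 livers, cut at 0. Acot3, Cyp4a14, Glyctk and Fbxo31 were called higher in KO AMLN livers, while Slco1a1, Slc10a1, Hspb1 and Ttr were not.

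Stress genes did not move as 1 group. Most of the shared immediate early genes were called lower in KO livers. Heat shock, endoplasmic reticulum and oxidative stress genes had no calls with edgeR. Of 2 genes tied to DNA damage and p53, Fbxo31 was higher and Eda2r was not called. Among 41 immediate early genes, 5 were shared and tested, 4 were called lower and the median was -1.76. With TMM 2 were called (Fos and Fosb) with a median of -1.45, and with DESeq2 3 (these and Cyr61) with a median of -1.33. Another 23 genes of that list stood in 1 table only. Mean CPM was higher on the AMLN than on the LF diet for all 5 tested genes in WT but for only 2 in KO livers. The rest were selected for a fall in the same KO livers, so the count of calls follows in part from the selection.

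Fos, the AP-1 subunit induced within minutes by growth factors and stress (chromosome 12, 85473890 to 85477273), had 5.05, 9.56, 56.2 and 18.6 CPM in WT and 2.102, 4.44, 1.88 and 5.25 CPM in KO livers. WT replicate 3 was the highest by far, and WT replicate 1 lay below KO replicate 4. The log2 fold change was -2.71 (standard error 0.66, edgeR adjusted p = 0.0232), and it was -1.70 and not called without WT replicate 3. Fosb, another AP-1 subunit, had 0.998, 0.808, 27.02 and 5.99 CPM in WT and 0.133, 0.123, 0.351 and 0.646 CPM in KO livers. No KO liver reached a WT liver, but the log2 fold change of -4.80 (standard error 1.09, edgeR adjusted p = 0.0182) became -3.03 without WT replicate 3, where the call was lost.

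Cyr61, a matrix-associated growth signal, had 13.2, 24.3, 79.9 and 66.9 CPM in WT and 10.7, 8.55, 16.7 and 18.5 CPM in KO livers, with WT replicates 3 and 4 above the others (log2 fold change -1.76, edgeR adjusted p = 0.0480). Klf6, a zinc finger factor, split the same way at 19.3, 20.6, 49.2 and 53.5 against 12.5, 15.6, 15.6 and 9.603 CPM (log2 fold change -1.42, edgeR adjusted p = 0.0333). Fosl2 was not called, with 7.59, 3.91, 13.5 and 9.09 against 8.64, 7.81, 7.01 and 4.995 CPM and a log2 fold change of -0.26 that was 0.04 with TMM and 0.13 with DESeq2. The list had 0 calls without WT replicate 3 and without KO replicate 1 or 2, 1 without KO replicate 3, and 2 without WT replicate 4 or KO replicate 4. Summed over the list, WT livers ranged from 46.1 to 226 CPM and KO livers from 34.1 to 41.5, while LF-fed livers ranged from 19.9 to 65.3 in WT and from 39.2 to 66.3 in KO. On the LF diet Fos had 0.992, 7.07, 3.92 and 2.29 CPM in WT and 9.19, 18.3, 9.34 and 4.35 CPM in KO livers, the reverse order, without a call.

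Of the heat shock list only Hspb1 and Serpinh1 were tested. Hspb1, a small heat shock protein, had 49.7, 43.1, 50.5 and 33.8 CPM in WT and 153, 52.96, 51.2 and 64.3 CPM in KO livers. KO replicate 1 stood alone at the top and KO replicate 3 was only just above the highest WT liver, with a log2 fold change of 0.86 (edgeR adjusted p = 0.160) that was 0.34 without KO replicate 1. DESeq2 called Hspb1 higher. Hspa5, the chaperone that reports endoplasmic reticulum stress, had 393, 349, 487 and 545 against 575, 302, 355 and 387 CPM, and its log2 fold change of -0.13 turned to 0.16 with TMM. Hmox1, the haem-degrading enzyme of oxidative stress, had 27.3, 25.01, 31.5 and 24.5 against 18.7, 23.7, 25.9 and 26.1 CPM, and its -0.20 turned to 0.07 with TMM. Neither was called, nor were Pdia3, Mt1, Osgin1 and Abcc4.

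Fbxo31, a ubiquitin ligase subunit tied to the DNA damage response (chromosome 8, 121549440 to 121578806), had the smallest adjusted p of the 4 genes called higher. It measured 37.6, 38.5, 21.6 and 37.1 CPM in WT and 102, 106, 95.2 and 87.5 CPM in KO livers. The lowest KO liver held more than any WT liver, and the groups differed 2.898-fold (log2 fold change 1.54, standard error 0.27, edgeR adjusted p = 0.00533). All 8 fits leaving out a liver and all 3 other scalings called it. On the LF diet it had 47.2, 40.4, 48.4 and 63.8 CPM in WT and 73.7, 90.5, 58.03 and 75.7 CPM in KO livers. Mean Fbxo31 was thus lower on the AMLN than on the LF diet in WT and higher in KO livers, but the interaction term was 0.96 on the log2 scale (edgeR adjusted p = 0.124). Eda2r, a receptor that p53 induces, had 1.18, 1.44, 4.05 and 4.57 CPM in WT and 1.83, 1.48, 1.82 and 0.947 CPM in KO livers (log2 fold change -0.88, edgeR adjusted p = 0.364).

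Acute phase genes were below 0 in 6 of 6 tested genes of 28, with 2 called lower and a median of -1.07. The shares over all tested genes were 73.1% below 0 and 8.46% called lower. Orm2 and Orm3 encode orosomucoids, plasma glycoproteins that rise in inflammation, and lie side by side on chromosome 4. Orm3 had 23.3, 30.2, 7.09 and 22.3 CPM in WT and 6.84, 7.07, 3.22 and 5.38 CPM in KO livers. Its lowest WT liver was just above its highest KO liver. Orm2 had 134, 43.6, 75.5 and 45.4 CPM in WT and 45.2, 17.9, 14.2 and 22.1 CPM in KO livers, where KO replicate 1 reached above the lowest WT liver. The log2 fold changes of Orm3 and Orm2 were -1.88 and -1.58 with edgeR adjusted p-values of 0.0182 and 0.0420, and Orm2 was not called with TMM or DESeq2. The genes are alike in sequence, so reads may be shared between them. Lcn2 (lipocalin 2), made by neutrophils and by inflamed hepatocytes, had 377, 38.1, 76.3 and 71.9 CPM in WT and 90.2, 23.97, 30.5 and 17.7 CPM in KO livers, with replicate 1 highest in each group, and was not called (edgeR adjusted p = 0.127). It was the 1 neutrophil marker tested.

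Interferon-stimulated genes were below 0 in 9 of 9 tested genes of 43, against 73.1% of all tested genes. Their median was -0.64, or -0.36 with TMM, and 1 was called lower, a count near the 8.46% of all tested genes. Ubd (FAT10), a ubiquitin-like protein induced by interferon gamma and tumor necrosis factor, had 10.6, 13.3, 54.6 and 55.5 CPM in WT and 3.67, 8.43, 8.23 and 8.91 CPM in KO livers. WT replicates 3 and 4 stood above WT replicates 1 and 2, and no KO liver reached any of them (log2 fold change -2.20, standard error 0.54, edgeR adjusted p = 0.0241). Isg15 had 20.2, 24.1, 12.1 and 17.3 against 15.8, 6.21, 5.101 and 9.603 CPM and was not called (edgeR adjusted p = 0.122). Of 3 S100 and annexin genes 0 were called, the nearest being S100a11 with a log2 fold change of -0.96 (edgeR adjusted p = 0.112).

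Of the called genes, 36 lay outside the lists and 30 in one or more. The mitochondrial transfer RNA genes other than mt-Th, and 2410006H16Rik, Gpm6a and Ly6d, were chosen after their values were seen, and so was the grouping into mitochondrial and mesothelial genes. All 6 mitochondrial transfer RNA genes of the shared set and the subunit gene mt-Nd3 lie on the forward strand of the mitochondrial genome, and 5 of the 6 and mt-Nd3 were called lower. In deposited coordinates of mm10, mt-Tg (9391 to 9458), mt-Nd3 (9459 to 9806) and mt-Tr (9808 to 9875) stand next to one another, as do mt-Th (11546 to 11612), mt-Ts2 (11613 to 11671) and mt-Tl2 (11671 to 11741). The gene apart from these blocks, mt-Tw (4950 to 5016), was the one not called.

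The gene mt-Nd3, a subunit of respiratory complex I, had 90.5, 167, 70.1 and 111 CPM in WT and 16.6, 25.6, 25.4 and 29.8 CPM in KO livers. The groups were well apart, with a log2 fold change of -2.17 (standard error 0.33, edgeR adjusted p = 0.00334). The transfer RNA for histidine, mt-Th, had 15.3, 33.8, 16.3 and 17.3 CPM in WT and 1.63, 2.55, 1.94 and 4.44 CPM in KO livers, also well apart (log2 fold change -2.97, edgeR adjusted p = 0.00268). For mt-Tr, mt-Ts2, mt-Tl2 and mt-Tg the log2 fold changes were -3.07, -3.11, -3.10 and -2.53, and for mt-Tw it was -1.11 (edgeR adjusted p = 0.141). Summed over the 6 transfer RNA genes, the medians were 111 CPM in WT and 20.3 in KO livers. In LF-fed livers they were 40.4 in WT and 38.2 in KO, so the diet moved these sums opposite ways. The calls therefore follow in part from the selection of genes by diet. All 5 called transfer RNA genes stayed called in each of the 8 fits that leave out a liver. How reads that cross from one to the next were assigned is not given in the sources used here. Another 13 mitochondrially encoded genes stood in 1 table only, as did 72 of 80 cytosolic ribosomal protein genes. The 1 ribosomal protein gene shared, Rps25, had 252, 565, 229 and 626 against 178, 156, 157 and 334 CPM without a call.

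Neat1, a nuclear RNA that builds paraspeckles (chromosome 19, 5824708 to 5845478), had 223, 196, 134 and 158 CPM in WT and 40.1, 15.5, 28.9 and 44.5 CPM in KO livers. Every WT liver held at least 3 times the highest KO liver, and Neat1 was 5.51-fold higher in WT (log2 fold change -2.46, standard error 0.35, edgeR adjusted p = 0.00268). 2410006H16Rik had 26.6, 53.6, 38.99 and 59.8 against 14.2, 8.88, 6.66 and 11.7 CPM (log2 fold change -2.11, edgeR adjusted p = 0.00408). Both were called in all 8 fits that leave out a liver.

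Genes known from mesothelium, the layer that covers the liver, were also lower. Msln (mesothelin) had 9.14, 6.06, 42.8 and 14.2 CPM in WT and 3.74, 1.11, 0.925 and 1.38 CPM in KO livers. Upk3b, a membrane plaque protein, had 7.14, 4.85, 55.2 and 15.7 CPM in WT and 4.27, 0.946, 1.94 and 0.646 CPM in KO livers. For both, WT replicate 3 stood highest, as it did for Fos and Fosb. Upk1b, a tetraspanin, had 2.42, 0.718, 9.81 and 3.87 against 0.334, 0.0822, 0.223 and 0.129 CPM. Gpm6a, a membrane glycoprotein also found in neurons, had 9.68, 5.48, 29.8 and 26.4 against 2.702, 1.85, 1.72 and 1.85 CPM. None of the 4 genes overlapped between groups, and their log2 fold changes were -3.33, -3.40, -4.40 and -3.13 with edgeR adjusted p-values of 0.00906, 0.0182, 0.00740 and 0.00408. Summed over the 4 genes, WT livers had 17.1 to 138 CPM, KO livers 3.99 to 11.04, LF-fed WT livers 4.77 to 24.7 and LF-fed KO livers 5.08 to 25.5. The medians of these sums were 44.2, 4.41, 6.78 and 13.4 in that order, so the diet moved them opposite ways in the genotypes. These calls may thus follow in part from the selection of genes by diet in the same livers. Leaving out WT replicate 3, KO replicate 2 or KO replicate 3 left 3 of the 4 called.

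Cib3, a calcium-binding protein, had 4.02, 3.46, 10.5 and 29.7 CPM in WT and 1.07, 0.329, 0.861 and 0.215 CPM in KO livers (log2 fold change -4.23, edgeR adjusted p = 0.00645). Myl7, the atrial myosin light chain, had 0.696, 1.17, 3.27 and 3.16 against 0.267, 0.164, 0.0638 and 0 CPM (log2 fold change -3.99, edgeR adjusted p = 0.0182). Ly6d, a small surface protein, had 139.6, 129, 145 and 84.3 CPM in WT and 44.1, 27.9, 38.04 and 5.86 CPM in KO livers (log2 fold change -2.10, edgeR adjusted p = 0.0182). None of the 3 overlapped between groups.

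**Figure D5:**
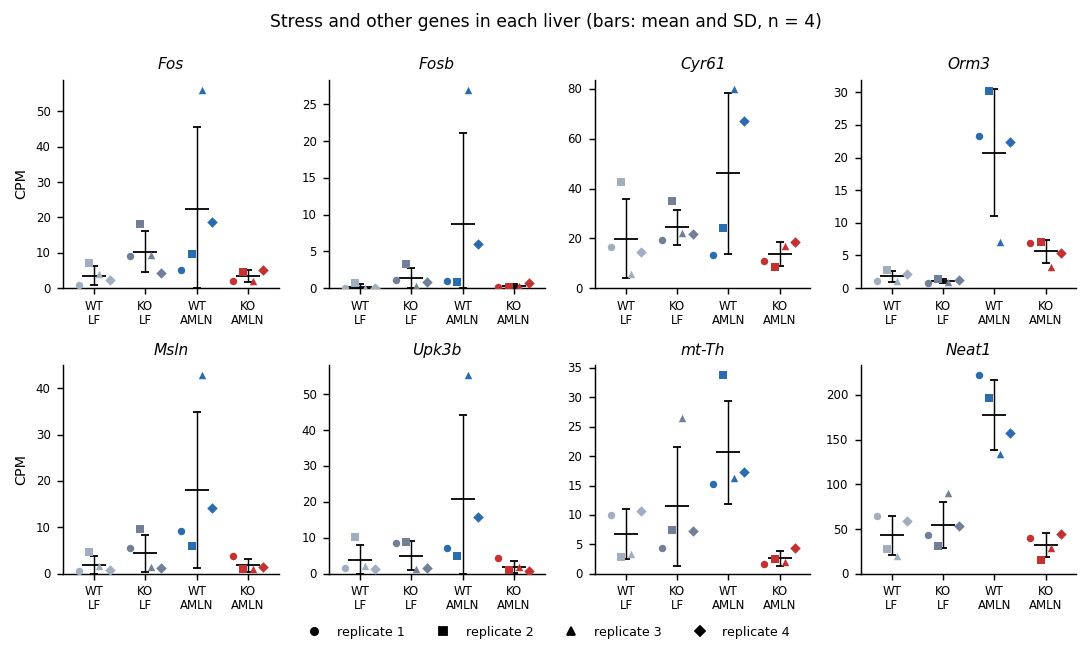
CPM of 3 immediate early genes, Orm3, the mesothelial genes Msln and Upk3b, mt-Th and Neat1 in each liver, by genotype and diet, with 1 symbol per replicate number and bars for the mean and SD of 4 livers, cut at 0. WT AMLN replicate 3 is highest for Fos, Fosb, Cyr61, Msln and Upk3b, whereas for Neat1 all WT AMLN livers lie above every KO AMLN liver by a wide gap.

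On the LF diet, measured in the same way, the genotypes were not told apart by any gene. With edgeR 0 of 640 tested genes (0.0%) were called, 44 had an unadjusted p under 0.05, and the median log2 fold change was 0.03. DESeq2 also called 0. Of the genes called lower on the AMLN diet, 55 were tested on the LF diet, and 3 of them (Fos, Fosb and Aqp8) had an unadjusted p under 0.05, with Fos and Fosb higher in KO and Aqp8, a water channel, lower. The list of monocyte-derived and lipid-associated macrophage genes had a median of -0.31 on the LF diet over 9 tested genes.

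Whether the genotype difference on the AMLN diet differed from that on the LF diet was tested with an interaction term over 734 genes. It called 3 genes (0.409%), all in the direction lower in KO on the AMLN diet, and 110 genes had an unadjusted p under 0.05. For Neat1 the LF-fed livers had 64.4, 28.2, 19.8 and 58.8 CPM in WT and 43.1, 31.5, 89.9 and 53.8 CPM in KO, and the interaction was -2.81 on the log2 scale (edgeR adjusted p = 0.0455). For mt-Nd3 they had 69.2, 51.8, 41.9 and 59.3 CPM in WT and 48.9, 51.1, 172 and 57.5 CPM in KO, and the interaction was -2.74 (edgeR adjusted p = 0.0455). For mt-Th they had 10.1, 2.79, 3.31 and 10.7 CPM in WT and 4.46, 7.49, 26.6 and 7.32 CPM in KO, and the interaction was -3.74 (edgeR adjusted p = 0.0495). For all 3 the mean was higher on the AMLN than on the LF diet in WT and lower in KO livers, and KO LF replicate 3 was the highest of its group. All 3 had been selected for a diet difference in each genotype with these same livers. Opposite diet effects amount to an interaction, so these calls follow in part from the selection. TMM gave 15 calls and DESeq2 gave 45, the replicate block gave 0, and leaving out 1 liver gave 0 to 24. Each of 6 livers, namely KO AMLN replicates 1, 2 and 3, WT AMLN replicate 4 and KO LF replicates 3 and 4, removed all calls when left out. Without WT AMLN replicate 2 there were 24 calls, without KO LF replicate 1 there were 13 and without WT LF replicate 2 there were 12. No macrophage gene was called by the interaction term, with Trem2 at -2.75 (edgeR adjusted p = 0.0558) and Lgals3 at -2.11 (edgeR adjusted p = 0.0558), so a difference between the diets in the genotype effect on macrophage genes was not shown with 4 livers in each group.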

How the data were processed

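Total RNA of 16 livers, 4 in each group, was sequenced after extraction with a column kit. The authors aligned reads to mm10 and tested diet effects with DESeq2. The aligner is STAR in the published methods and HISAT2 in the submitters' processing notes. The counting program, annotation release and strandedness are not given in the sources used here. Each deposited table held, for 8 livers of 1 genotype, read counts per gene, FPKM values that the authors scaled by gene length and library total, and counts that the authors divided by size factors (a normalised signal). The authors' group means, log2 fold changes and p-values of their diet tests were not used.

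The total of each library was worked back from its counts, the FPKM values and the length of each gene. Counts of the 752 shared genes were tested with edgeR 4.0.16 (limma 3.58.1, R 4.3.3), with these totals as library sizes, normalization factors of 1 and the default filter by group. Genotype was the only term within a diet, and all 16 livers entered the interaction test. Alternatives were TMM, the authors' size factors, DESeq2 1.42.0, other filters and thresholds, all 16 livers in 1 fit, the replicate number as a block and the removal of each liver. Standard errors were derived from the test statistic. The livers are taken as 1 per mouse, and p-values measure the spread between them.

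The genes and the lists were chosen with earlier results of these data known. The text names up to 10 called genes in each direction with the largest change and no overlap between groups, up to 4 members of each list with the smallest p, the genes that the published results name, and the genes called by the interaction term. Other genes are said to have been chosen after their values were seen. Coordinates are those of the deposited tables in mm10. Promoter sequences come from RefSeq on GRCm38.p6. Python 3.11.15, pandas 2.3.3, numpy 2.4.6 and matplotlib 3.10.9 were used. Values of some single genes are not reported here.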

Additional observations from a re-analysis of the deposited data

Results flagged for a closer look

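Among 176 groups of 4 livers looked at over 85 genes, 23 held a liver that stood far from the other 3 by Dixon's test, of which chance gives about 1 in 20. In WT livers on the AMLN diet, replicate 4 stood far above the others in 5 macrophage genes. It held 67.6 CPM of Trem2 (others 13.4 to 19.7), 478 of Clec7a (50.2 to 90.6), 1499 of Lyz2 (252 to 371), 541 of Cd5l (195 to 240.5) and 171 of C1qb (64.1 to 82.3). WT replicate 1 held 377 CPM of Lcn2 (38.1 to 76.3), and WT replicate 2 held 33.8 CPM of mt-Th (15.3 to 17.3) and 18.8 of mt-Tg (6.97 to 8.68). WT replicate 3 had 21.6 CPM of Fbxo31, below the other WT livers (37.1 to 38.5).

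In KO livers on the AMLN diet, replicate 3 held 12.2 CPM of Gpnmb (5.47 to 5.73) and a low 7.11 CPM of Ccl6 (11.9 to 12.4). Replicate 4 held 26.0 CPM of Hsd3b5 (0.797 to 4.30), 400.3 of Hamp (58.9 to 88.0) and 334 of Rps25 (156 to 178). Replicate 1 held 153 CPM of Hspb1 (51.2 to 64.3), 2.17 of Cd163 (0.603 to 0.670), 3.74 of Msln (0.925 to 1.38), 2.702 of Gpm6a (1.72 to 1.85) and a low 3.67 of Ubd (8.23 to 8.91). Replicate 2 held 5.30 CPM of Gsta1 (2.24 to 2.44) and a low 17.2 of Sirpa (19.0 to 19.2). On the LF diet, KO replicate 3 held 172 CPM of mt-Nd3 (48.9 to 57.5) and 26.6 of mt-Th (4.46 to 7.49).

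By edgeR's interaction term, the genotype difference was called as differing between the diets for mt-Nd3 (-2.74 on the log2 scale), mt-Th (-3.74) and Neat1 (-2.81). These calls follow in part from the selection of genes by diet in both genotypes. With the replicate block there were 0 calls, and leaving out some single livers also removed them. Of these, mt-Nd3 and mt-Th are the genes in which KO LF replicate 3 stands apart.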

How the results depend on the processing

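Beside the 66 calls on the AMLN diet, the other scalings, filters, thresholds and the fit of all 16 livers gave 48 (TMM, 41 of the 66 among them) to 73 (DESeq2, 56 of the 66), and leaving out 1 liver gave 22 (without KO replicate 2) to 84 (without WT replicate 2). The replicate number as a block gave 116 calls (103 lower and 13 higher), all 66 included. Livers that share a number share nothing else in the labels. The correlations of their deviations were 0.28, 0.09, 0.31 and 0.39 on the AMLN diet and 0.21, 0.06, 0.45 and -0.05 on the LF diet. On the AMLN diet WT replicates 1, 3 and 4 correlated best with the KO liver of the same number. WT replicate 2 correlated best with KO replicate 4 (0.22). Since the labels name no pairs, the numbers were not taken as pairs, and these values do not settle whether they are. On the LF diet 0 genes were called under every alternative run, the block included. The interaction gave 15 calls with TMM, 45 with DESeq2, 3 without a filter and 0 with the block, and 0 to 24 when 1 liver was left out. Reversed directions were those of Col1a1 (0.20 with TMM, 0.30 with DESeq2, -0.71 to 0.41 leaving out 1 liver), Fosl2 (0.037, 0.13 and -0.50 to 0.053), Hspa5 (0.16 with TMM, 0.23 with DESeq2), Hmox1 (0.075 and 0.15), Ech1 (-0.021 with the authors' factors, -0.17 to 0.18 leaving out 1 liver), Lyve1 (-0.14 to 0.46) and Stab2 (-0.031 to 0.17), none of them called. Of 45 called genes among the 85 followed, 35 stayed called with TMM, 41 with DESeq2 and 45 with the authors' factors or the block, and 19 to 43 when 1 liver was left out. The causes of these changes were not tested. Limits are the small groups, the selection of genes by diet effect in the same livers, and the lack of a table of all genes on which to scale the libraries. The 19 shared genes with too few counts were not tested.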
